A study of Mus musculus with 6 samples.

Results

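Axon guidance and synaptic adhesion genes were compared between sorted CCK-EGFP cells and non-EGFP cells of the mouse intestine. The set was chosen by gene symbol: neurexins, neuroligins, contactins and their associated proteins, Cadm, Ncam, Dscam, Lrrtm and Slitrk genes, Slit and Robo genes, semaphorins, plexins, Eph receptors, ephrins and Unc5 genes, together with Nrp1, Nrp2, Dcc, Ntn1 and Ntn4. It holds 101 of the 18193 genes measured, each read from the 1 probe set whose mean over all 6 arrays was highest. In all, 235 probe sets named a member, and 68 members had more than 1. Of the 101, 3 matched by symbol alone: Unc50 and Unc5cl are not netrin receptors, and Plxna4os1 is a transcript antisense to a plexin gene.

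Both groups of cells came from the intestine of adult Swiss Webster mice that carried the CCK-EGFP transgene. In these mice green fluorescent protein marks cells that make cholecystokinin (Cck), a hormone of the enteroendocrine lineage. The 3 CCK-EGFP samples hold fluorescent cells purified by sorting after enzymatic dissociation, and the 3 non-EGFP samples hold the same number of sorted cells without fluorescence, which mix the other cell types of the tissue. Nothing in the labels tells whether the samples of a group come from different animals, so the p-values refer to the spread among samples, which could be technical. RNA was amplified from picogram amounts before hybridisation.

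Guidance molecules were first described in growing axons. Netrins, Slits, semaphorins and ephrins are ligands that attract or repel a growth cone through Dcc and Unc5, Robo, plexin with neuropilin, and Eph receptors, while neurexins, neuroligins, contactins and the Cadm and Ncam proteins join membranes at synapses and along nerve fibres. In the gut epithelium Eph receptors and ephrins are known for sorting cells along the crypt axis. Enteroendocrine cells share much of their secretory machinery with neurons and can extend processes that contact nerve fibres.

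Values are log2 RMA levels, on which 1 unit is a doubling, and differences are CCK-EGFP minus non-EGFP. A background level of 4.60 was set from olfactory and vomeronasal receptor genes. Array correlations over all probe sets ran from 0.969 to 0.981 among CCK-EGFP arrays, from 0.953 to 0.962 among non-EGFP arrays and from 0.879 to 0.933 between the groups. The sort was checked with markers: all 13 enteroendocrine markers were higher in CCK-EGFP cells, and the log2 of their summed level was 16.25 to 16.53 on CCK-EGFP arrays and 12.57 to 12.66 on non-EGFP arrays. Enterocyte markers stood at 16.47 to 16.89 on CCK-EGFP arrays and 17.15 to 17.20 on non-EGFP arrays, with 4 of 12 lower in CCK-EGFP cells. In bulk samples such as these, fewer cells of a type and less RNA per cell cannot be told apart.

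The guidance and adhesion genes split in both directions. In CCK-EGFP cells 16 were higher and 16 lower (limma, Benjamini-Hochberg adjusted over all 18193 genes, threshold 0.05), and 69 did not pass. That is 15.8% in each direction, beside 14.0% higher and 10.2% lower among all genes measured, and 31.7% in all beside 24.1%. The groups did not overlap for 57 members, 25 of which did not pass the test, where 49.9% of all genes did not overlap. Every gene that passed, 4391 in all, had groups that did not overlap. For members past the threshold the lack of overlap therefore only repeats the call. The median difference was -0.31 over the members and -0.17 over all genes. With group means below background raised to it, the median was 0 over the members and 0 over all genes. Centring each array on its median, which moved the median of all genes to -0.42, gave 15 members higher and 23 lower, or 39.5% of the calls higher instead of 50%. Over all genes it gave 2101 higher and 3605 lower, or 36.8% of the calls higher instead of 57.8%. At an unadjusted p under 0.05, CCK-EGFP cells had 20 members higher and 27 lower, beside 3589 and 3815 of all genes. The main test ignored the replicate number. With that number as a block, 17 members were higher and 13 lower at the adjusted threshold.

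Of the 101 members, 61 (60.4%) had a group mean above the background level: 49 in both groups, 8 in CCK-EGFP cells alone and 4 in non-EGFP cells alone. Among all genes the share was 74.7%, with 912 genes above it in CCK-EGFP cells alone and 787 in non-EGFP cells alone. The other 40 members lay below it in both groups, with differences from -0.77 to 0.84, and 35 of those differences were negative. Dim genes at large leaned the same way: the median difference of all genes was -0.17, and 0.03 over those above background in a group. Differences near the threshold on its inner side were those of Cadm1 (adjusted p = 0.0465) and Epha8 (adjusted p = 0.04996), and on its outer side those of Sema6d (adjusted p = 0.0622) and Dcc (adjusted p = 0.0652). Of the 16 members higher in CCK-EGFP cells, 9 stayed past the threshold whichever single array was left out, as did 5 of the 16 lower. Leaving out CCK-EGFP replicate 2 had the largest effect on the counts, with 9 higher and 5 lower. The counts over all genes also fell most without this array, from 2540 to 1365 higher and from 1851 to 505 lower.

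**Figure D1:**
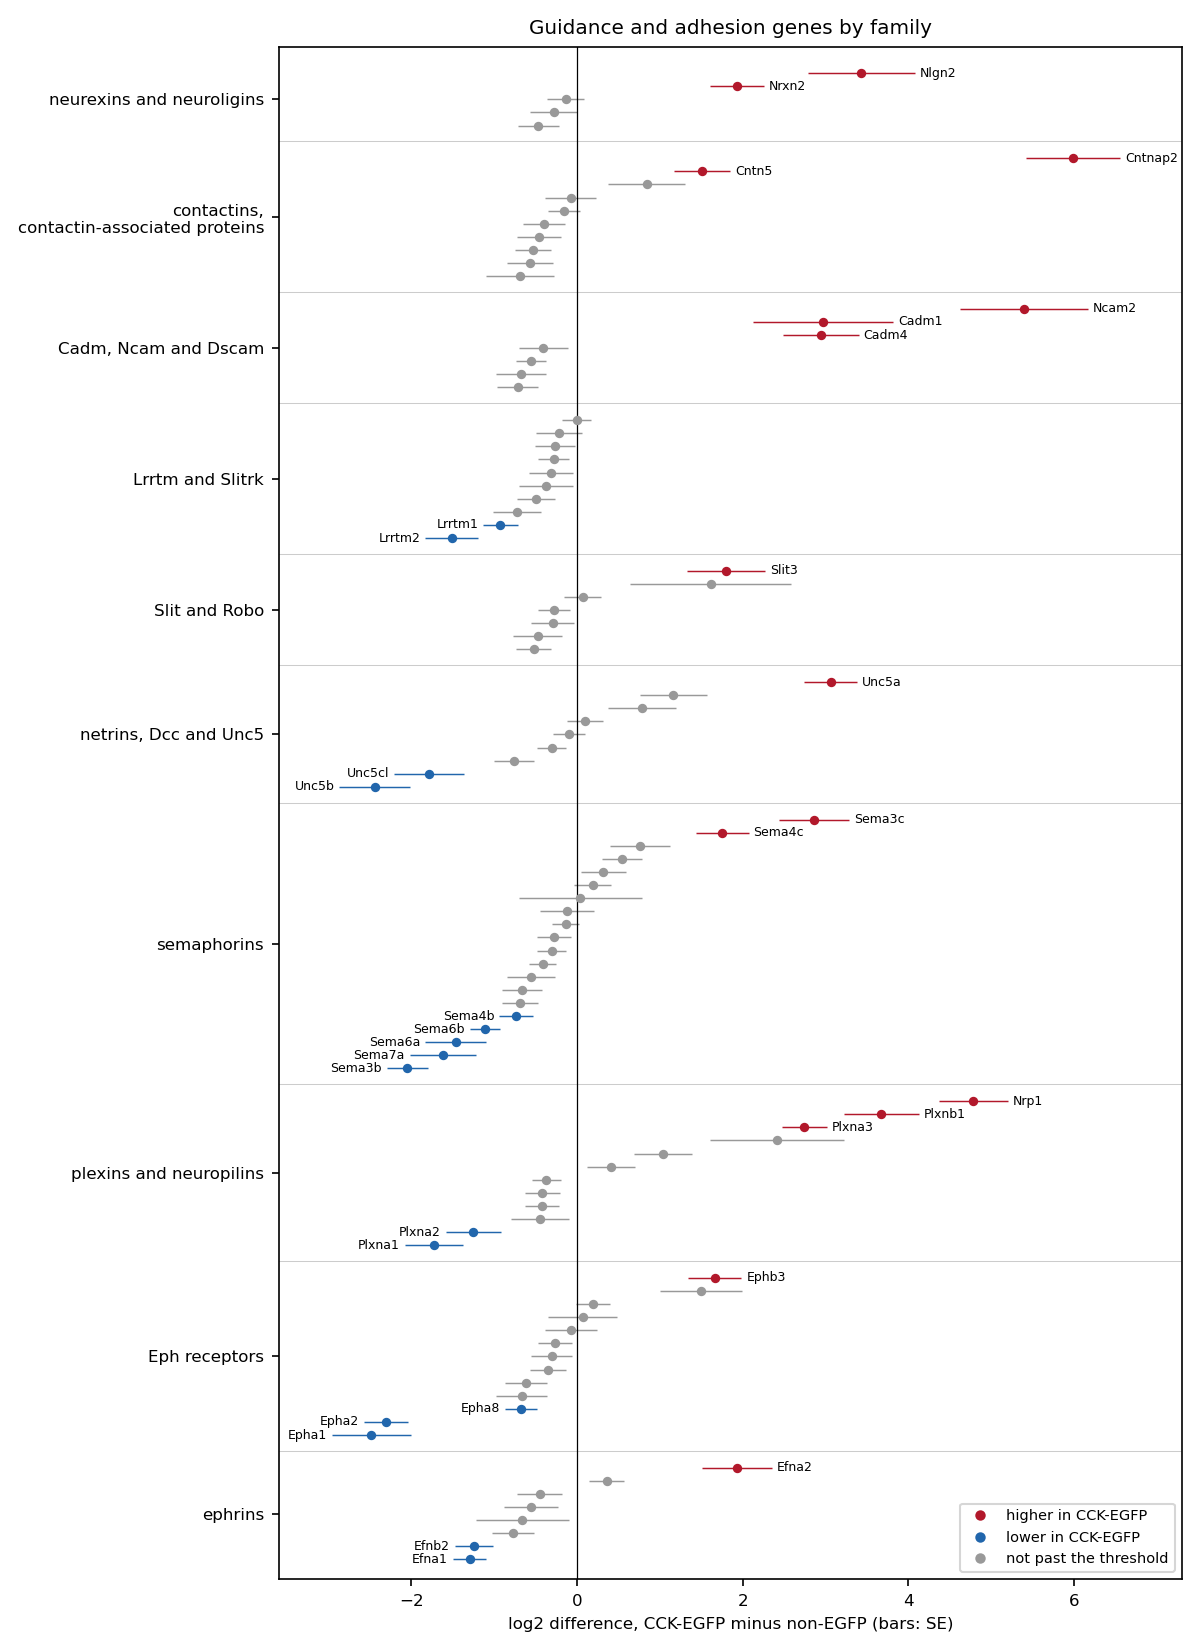
Difference of each of the 101 members, grouped by family. The x axis is the log2 difference, CCK-EGFP minus non-EGFP, bars are standard errors (n = 3 arrays per group), and members past the threshold are named. The red points reach 5.98 (Cntnap2), the blue points reach -2.48 (Epha1), and most grey points lie left of 0. Many grey points belong to members below background in both groups, which have no measured fold.

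The members were also counted by role. Among all genes 14.0% were higher in CCK-EGFP cells, 10.2% lower, and 74.7% above background in a group. Among 32 adhesion molecules 7 were higher (21.9%), 2 were lower (6.25%), and 18 were below background in both groups, leaving 43.8% above it. Of 33 receptors 5 were higher (15.2%) and 6 lower (18.2%). Membrane-bound ligands counted 2 higher (9.52%) and 6 lower (28.6%) of 21, and secreted ligands 2 higher (16.7%) and 1 lower (8.33%) of 12. The family counts below stand beside the same shares of all genes. No test of the difference between roles was made.

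The proximal promoters of 80 of the 101 members were found in RefSeq (GRCm38.p6), as 300 bases from 250 before to 50 after the start of the gene. They were searched on both strands for the E-box CANNTG, which basic helix-loop-helix factors bind, and for its forms CAGCTG and CAGATG, both contained in CANNTG. At least one CANNTG stood in the promoters of 7 of 14 genes higher in CCK-EGFP cells (50%), 7 of 12 lower (58.3%) and 36 of 54 not past the threshold (66.7%), where 70.9% of the 14452 measured genes with a promoter held one. CAGCTG occurred in 2 of the 14 higher genes (14.3%) and in 18.8% of all. CAGATG occurred in 1 of the 14 (7.14%) and in 15.6% of all. A match is only a run of letters in this window. A gene can have several promoters, 106 for these 80 genes, and was counted if any of them held the motif. For 4 genes higher in CCK-EGFP cells 1 promoter is shown: for Cntnap2, which had the largest difference, the one of 2 that has no E-box (the other holds 1), and for Sema3c, Nlgn2 and Ephb3 the ones that hold CAGCTG or CAGATG. They lie at chr6:45059811-45060110, plus strand (Cntnap2), chr5:17574566-17574865, plus strand (Sema3c), chr11:69837735-69838034, minus strand (Nlgn2) and chr16:21204545-21204844, plus strand (Ephb3), and capitals mark E-boxes.
Cntnap2: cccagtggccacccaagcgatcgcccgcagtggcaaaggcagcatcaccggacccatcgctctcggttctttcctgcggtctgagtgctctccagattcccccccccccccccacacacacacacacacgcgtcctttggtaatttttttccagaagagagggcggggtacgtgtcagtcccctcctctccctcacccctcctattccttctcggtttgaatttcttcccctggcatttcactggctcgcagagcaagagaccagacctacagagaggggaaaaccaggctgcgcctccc
Sema3c: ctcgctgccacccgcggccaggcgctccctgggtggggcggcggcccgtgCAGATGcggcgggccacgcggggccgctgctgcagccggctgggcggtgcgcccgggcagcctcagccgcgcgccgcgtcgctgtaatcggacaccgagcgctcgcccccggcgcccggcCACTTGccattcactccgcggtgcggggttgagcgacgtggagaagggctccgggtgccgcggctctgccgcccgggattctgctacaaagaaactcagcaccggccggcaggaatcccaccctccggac
Nlgn2: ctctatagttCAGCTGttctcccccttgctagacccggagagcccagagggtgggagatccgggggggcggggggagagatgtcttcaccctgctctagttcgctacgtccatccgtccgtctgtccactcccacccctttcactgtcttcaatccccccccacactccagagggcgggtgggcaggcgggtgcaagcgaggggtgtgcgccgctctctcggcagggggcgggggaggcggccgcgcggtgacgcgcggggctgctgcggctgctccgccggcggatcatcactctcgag
Ephb3: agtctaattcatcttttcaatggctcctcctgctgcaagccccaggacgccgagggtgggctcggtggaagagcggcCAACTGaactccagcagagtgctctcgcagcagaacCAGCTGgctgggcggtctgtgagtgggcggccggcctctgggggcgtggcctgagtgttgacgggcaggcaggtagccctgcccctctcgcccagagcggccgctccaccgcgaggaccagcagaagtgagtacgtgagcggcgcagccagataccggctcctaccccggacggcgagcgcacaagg

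Neurexins and neuroligins bind each other across the synaptic cleft. Of the 5 measured, 2 were higher in CCK-EGFP cells and none was lower. Nlgn2, the neuroligin of inhibitory synapses, had levels of 9.97, 9.52 and 8.52 on the CCK-EGFP arrays, against 7.22, 5.44 and 5.05 on the non-EGFP arrays. Its lowest CCK-EGFP value was above its highest non-EGFP value, a difference of 3.43 ± 0.64 (SE), or 10.8-fold (adjusted p = 0.0133). Without CCK-EGFP replicate 2 the adjusted p was 0.0554. Nrxn2, a neurexin, had levels of 7.35, 7.74 and 7.89 on the CCK-EGFP arrays, against 5.64, 6.32 and 5.21 on the non-EGFP arrays. Here too the groups stood apart, by 1.93 ± 0.33 (adjusted p = 0.0094). Each gene has a second, dimmer probe set that did not pass, with differences of -0.43 for Nlgn2 and -0.14 for Nrxn2. Nlgn3 averaged 3.53 in CCK-EGFP cells, against 3.67 in non-EGFP cells, and Nrxn3 averaged 3.61 in CCK-EGFP cells, against 3.89 in non-EGFP cells. These means and those of Nlgn1 were below background in both groups.

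Contactins and contactin-associated proteins organise membrane domains of axons. Cntnap2, which holds potassium channels beside the nodes of myelinated axons, had the largest difference of all members. Its levels were 10.93, 11.32 and 9.35 on the CCK-EGFP arrays, against 4.99, 3.87 and 4.80 on the non-EGFP arrays. All 3 CCK-EGFP arrays were far above the non-EGFP arrays, whose mean was below background, so Cntnap2 was at least 61.2-fold higher (fitted difference 5.98 ± 0.57, adjusted p = 0.00121). A second Cntnap2 probe set was also higher, by 1.51 or more on the log2 scale, and the other, with both means below background, was not past the threshold. Cntn5, a membrane-anchored contactin, had levels of 4.87, 5.47 and 4.35 on the CCK-EGFP arrays, against 3.11, 3.77 and 3.29 on the non-EGFP arrays. The groups did not overlap, but CCK-EGFP levels were close to background, and the gene was at least 1.23-fold higher (fitted difference 1.51 ± 0.34, adjusted p = 0.0232). Its call was lost when CCK-EGFP 1 or 2, or else non-EGFP 1 or 3, was left out, with an adjusted p of up to 0.0723. The other 8 genes of the family did not pass, with differences from -0.69 to 0.84. Cntn2 averaged 4.88 in CCK-EGFP cells, against 5.34 in non-EGFP cells. Cntnap1 averaged 3.95 in CCK-EGFP cells, against 4.52 in non-EGFP cells, below background in both groups like Cntn1, Cntn3, Cntn4, Cntn6, Cntnap4 and Cntnap5a.

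Of 7 Cadm, Ncam and Dscam genes, which encode adhesion molecules of the immunoglobulin superfamily, 3 were higher in CCK-EGFP cells. Ncam2 had levels of 10.39, 10.38 and 9.55 on the CCK-EGFP arrays, against 6.45, 3.30 and 4.38 on the non-EGFP arrays. The non-EGFP values spread widely yet stayed below every CCK-EGFP value, and the difference was 5.39 ± 0.77, or 42.0-fold (adjusted p = 0.00549). Of its other probe sets, 1 was higher by at least 4.35 on the log2 scale, with a non-EGFP mean below background, and 1 passed in the same direction with both means below background. Cadm4 had levels of 7.25, 6.96 and 5.70 on the CCK-EGFP arrays, against 3.92, 3.17 and 4.01 on the non-EGFP arrays. All non-EGFP values were below background, and the gene was at least 4.11-fold higher (fitted difference 2.94 ± 0.46, adjusted p = 0.00707). Cadm1, also called SynCAM1, had levels of 9.33, 8.28 and 7.12 on the CCK-EGFP arrays, against 3.64, 6.41 and 5.77 on the non-EGFP arrays. Its groups did not overlap but both varied, and the difference of 2.97 ± 0.84 was just past the threshold (adjusted p = 0.0465). The call was lost with the replicate number as a block (adjusted p = 0.0837), after a second quantile normalization (adjusted p = 0.0652) and without any single array other than CCK-EGFP replicate 3 (adjusted p as high as 0.132). Tested alone, the Cadm1 probe set used had an adjusted p of 0.0516. Of the gene's other 3 probe sets, 1 was higher by at least 1.83 on the log2 scale (adjusted p = 0.00791), with a non-EGFP mean below background. The others did not pass, with differences of 0.51 and 1.79. The remaining 4 genes of the family did not pass and ran from -0.71 to -0.40. Cadm3 averaged 5.18 in CCK-EGFP cells, against 5.74 in non-EGFP cells (difference -0.56, adjusted p = 0.0670), and it was a lower call after centring (adjusted p = 0.0313), a second quantile normalization (adjusted p = 0.0346) or with array weights (adjusted p = 0.0488). Dscaml1 averaged 4.76 in CCK-EGFP cells, against 5.16 in non-EGFP cells. Ncam1, widely used as a neural and neuroendocrine marker, had a CCK-EGFP mean below background and did not pass, and Dscam was below background in both groups.

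Lrrtm and Slitrk proteins are leucine-rich repeat proteins of the postsynaptic membrane. None of the 10 was higher in CCK-EGFP cells and 2 were lower. Lrrtm2, a neurexin ligand, had levels of 8.91, 7.87 and 8.38 on the CCK-EGFP arrays, against 10.23, 9.61 and 9.86 on the non-EGFP arrays. Every CCK-EGFP value was below every non-EGFP value, a difference of -1.51 ± 0.32 (adjusted p = 0.0189). The call was lost when CCK-EGFP replicate 2 or non-EGFP replicate 1 was left out (adjusted p as high as 0.0616) and with the mean of all probe sets (adjusted p = 0.0531). Lrrtm1 had levels of 4.06, 3.75 and 4.01 on the CCK-EGFP arrays, against 5.13, 4.69 and 4.77 on the non-EGFP arrays. These values lie around the background level, and non-EGFP cells were at least 1.20-fold higher (fitted difference -0.92 ± 0.21, adjusted p = 0.0234). Its call was lost when any of the CCK-EGFP arrays, or non-EGFP replicate 1, was left out (adjusted p as high as 0.0948) and with the mean of all probe sets (adjusted p = 0.0834). Slitrk3 averaged 5.13 in CCK-EGFP cells, against 5.39 in non-EGFP cells, and Lrrtm3 averaged 3.996 in CCK-EGFP cells, against 4.21 in non-EGFP cells. Lrrtm3, Lrrtm4 and the other 5 Slitrk genes were below background in both groups.

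**Figure D2:**
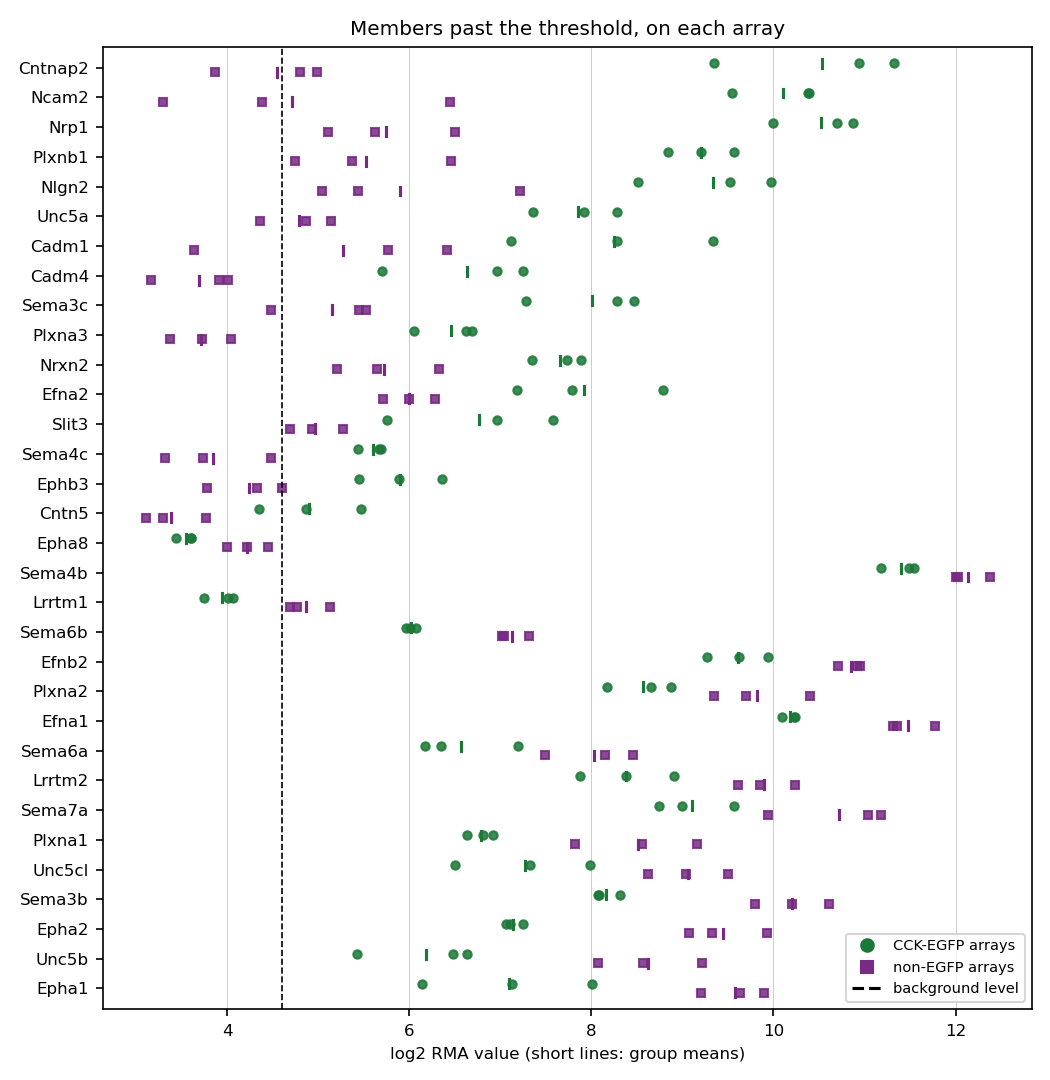
Level of each of the 32 members past the threshold on every array. The x axis is the log2 RMA value, circles are CCK-EGFP arrays, squares are non-EGFP arrays, short lines are group means and the dashed line is the background level of 4.60. In each row the circles and squares do not overlap, as was so for every gene past the threshold.

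Netrins act through Dcc, which attracts, and the Unc5 receptors, which repel. Among these receptors Unc5a and Unc5b went opposite ways. Unc5a had levels of 8.29, 7.92 and 7.36 on the CCK-EGFP arrays, against 5.14, 4.37 and 4.86 on the non-EGFP arrays. CCK-EGFP values were all above non-EGFP values, which sat near background, and the difference was 3.06 ± 0.32, or 8.36-fold (adjusted p = 0.00166). Unc5b had levels of 6.64, 5.43 and 6.48 on the CCK-EGFP arrays, against 9.21, 8.57 and 8.08 on the non-EGFP arrays. It was lower on every CCK-EGFP array, by 2.44 ± 0.43 on the log2 scale, and 5.43-fold lower on the linear scale (adjusted p = 0.0104). Dcc, singled out after its values were seen, averaged 5.01 in CCK-EGFP cells, against 5.78 in non-EGFP cells, and did not pass (adjusted p = 0.0652). After centring, Dcc was lower in CCK-EGFP cells (difference -1.01, adjusted p = 0.0268), as after a second quantile normalization (adjusted p = 0.0271). The ligand Ntn4, a laminin-related netrin, averaged 9.32 in CCK-EGFP cells, against 8.54 in non-EGFP cells, a difference of 0.78 ± 0.41 that did not pass. Ntn1 and Unc5d were below background in both groups, while Unc5c exceeded it in CCK-EGFP cells without passing the test.

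The other genes in this family match by symbol alone. Unc5cl, which lacks the netrin-binding part of Unc5 receptors, had levels of 6.51, 7.33 and 7.99 on the CCK-EGFP arrays, against 8.63, 9.50 and 9.04 on the non-EGFP arrays. It was lower in CCK-EGFP cells by 1.78 ± 0.42 (adjusted p = 0.0275), a call lost when CCK-EGFP 1 or 2, or else non-EGFP 2 or 3, was left out (adjusted p as high as 0.0871). Unc50 averaged 9.75 in CCK-EGFP cells, against 9.85 in non-EGFP cells and did not pass.

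Slit proteins are secreted ligands of Robo receptors. Slit3 was higher in CCK-EGFP cells, with levels of 6.97, 7.57 and 5.75 on the CCK-EGFP arrays, against 5.27, 4.94 and 4.69 on the non-EGFP arrays. Its lowest CCK-EGFP value was just above the highest non-EGFP value, and the difference was 1.80 ± 0.47 (adjusted p = 0.0371). The call was lost after centring (adjusted p = 0.0505), after a second quantile normalization (adjusted p = 0.0625) and without any single array other than CCK-EGFP replicate 3 (adjusted p as high as 0.111). Slit2 averaged 7.84 ± 1.08 in CCK-EGFP cells, against 6.23 ± 1.82 in non-EGFP cells (SD, n = 3 each). Its groups overlapped and the difference of 1.62 did not pass (adjusted p = 0.246), although it did with the replicate number as a block (adjusted p = 0.0391). Slit1 averaged 5.54 in CCK-EGFP cells, against 5.83 in non-EGFP cells. No Robo gene passed: Robo1, Robo2 and Robo4 were below background in both groups, and Robo3 barely exceeded it in non-EGFP cells.

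Plexins are the receptors of semaphorins, and neuropilins are their co-receptors for class 3 semaphorins. Of 12 genes named as such, CCK-EGFP cells had 3 higher and 2 lower. Nrp1, also a co-receptor of vascular endothelial growth factor, had levels of 10.88, 10.70 and 10.00 on the CCK-EGFP arrays, against 6.50, 5.11 and 5.62 on the non-EGFP arrays. The groups were separated by more than their spread, with a difference of 4.78 ± 0.41, or 27.5-fold (adjusted p = 0.000858). All 4 of its probe sets were higher in CCK-EGFP cells. In the other 3 the non-EGFP mean was below background, and the differences were at least 2.27, 5.40 and 6.32. Its paralogue Nrp2 averaged 7.27 in CCK-EGFP cells, against 6.86 in non-EGFP cells, with overlapping groups, and did not pass (adjusted p = 0.316).

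Plxnb1, a receptor of Sema4d, had levels of 9.56, 9.20 and 8.84 on the CCK-EGFP arrays, against 6.46, 4.75 and 5.37 on the non-EGFP arrays. Every CCK-EGFP value was above every non-EGFP value, by 3.67 ± 0.45 on average, or 12.8-fold (adjusted p = 0.00316). Plxna3 had levels of 6.69, 6.63 and 6.05 on the CCK-EGFP arrays, against 4.04, 3.37 and 3.73 on the non-EGFP arrays. As all non-EGFP values were below background, Plxna3 was at least 3.62-fold higher (fitted difference 2.74 ± 0.27, adjusted p = 0.0014). A second Plxna3 probe set, with both means below background, did not pass (difference 0.25). Relatives of Plxna3 went the other way. Plxna1 had levels of 6.92, 6.63 and 6.81 on the CCK-EGFP arrays, against 9.16, 7.82 and 8.56 on the non-EGFP arrays. Plxna2 had levels of 8.87, 8.17 and 8.65 on the CCK-EGFP arrays, against 10.40, 9.70 and 9.34 on the non-EGFP arrays. Neither gene's groups overlapped, and the differences were -1.73 ± 0.35 for Plxna1 (adjusted p = 0.0168) and -1.249 ± 0.33 for Plxna2 (adjusted p = 0.040). The Plxna1 call was lost when CCK-EGFP replicate 1 or 2 was left out (adjusted p as high as 0.0689), and the Plxna2 call without any single array other than non-EGFP replicate 3 (adjusted p as high as 0.130). A second Plxna1 probe set, whose CCK-EGFP mean was below background, did not pass (difference -0.39).

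Among the plexins that did not pass, Plxnb2 averaged 12.04 in CCK-EGFP cells, against 12.46 in non-EGFP cells, high in both groups. Plxnc1, a receptor of Sema7a, averaged 7.02 ± 0.19 in CCK-EGFP cells, against 4.61 ± 1.74 in non-EGFP cells (SD, n = 3 each), a difference of 2.41 (adjusted p = 0.0729). It passed with array weights (adjusted p = 0.0279) and with the mean of its 6 probe sets (adjusted p = 0.00448). Without non-EGFP replicate 1, its adjusted p was 0.0177. Plxnd1, singled out after its values were seen, averaged 5.83 in CCK-EGFP cells, against 4.79 in non-EGFP cells (adjusted p = 0.0733) and passed with the replicate number as a block (adjusted p = 0.0344) or without non-EGFP replicate 2 (adjusted p = 0.0396). Plxna4, Plxnb3 and the antisense transcript Plxna4os1 were below background in both groups.

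**Figure D3:**
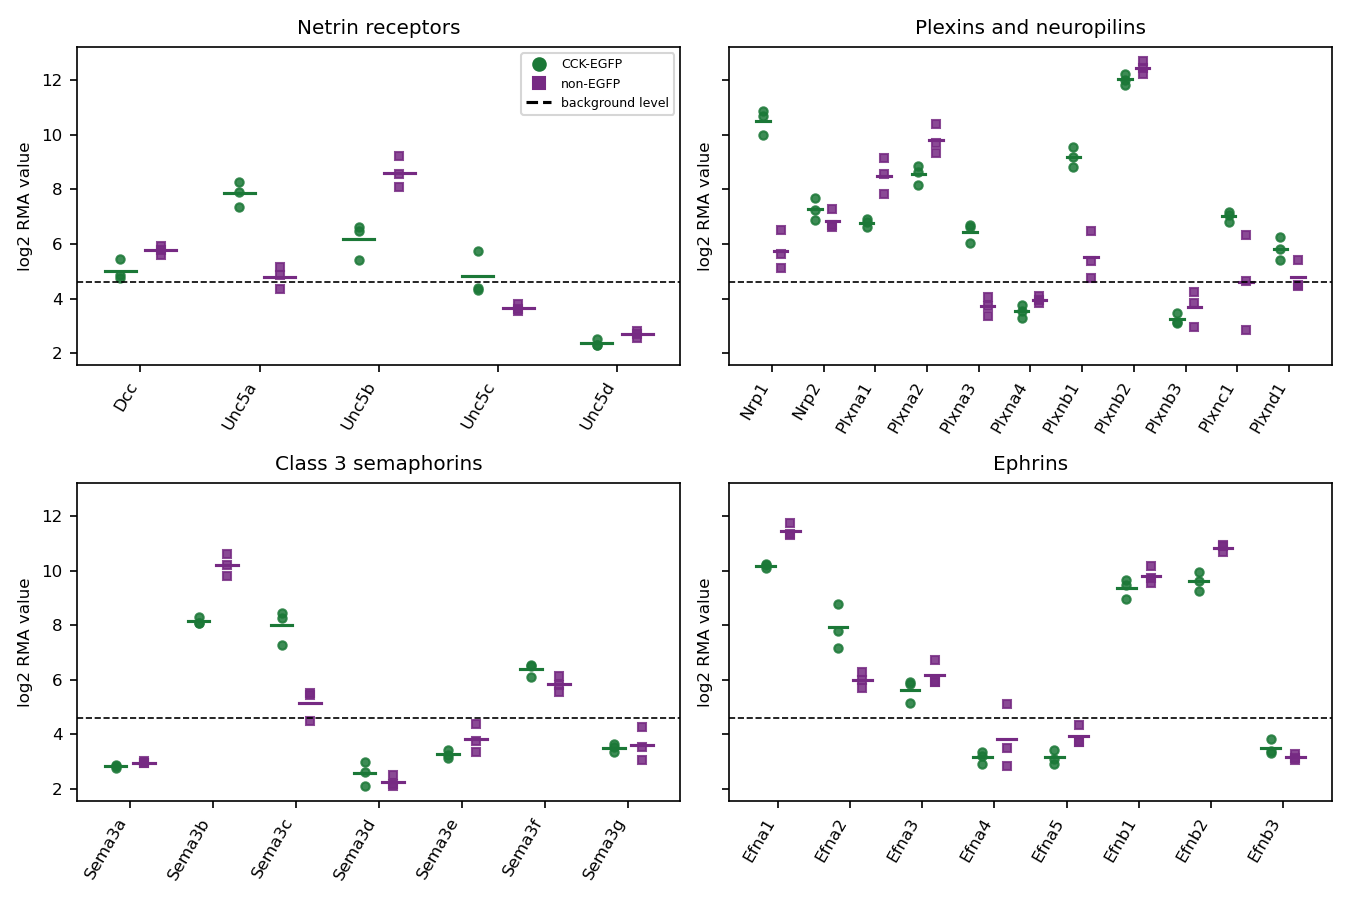
Levels of related genes on every array in 4 families: netrin receptors, plexins and neuropilins, class 3 semaphorins and ephrins. The y axis is the log2 RMA value, circles are CCK-EGFP arrays, squares are non-EGFP arrays, horizontal lines are group means and the dashed line is the background level of 4.60. Unc5a with Unc5b, Plxna3 with Plxna1, Sema3c with Sema3b and Efna2 with Efna1 differ between the groups in opposite directions. Only the probe set used for each gene is drawn.

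Of 20 semaphorins, CCK-EGFP cells had 2 higher and 5 lower. The 2 secreted class 3 semaphorins that passed went opposite ways. Sema3c had levels of 8.47, 8.29 and 7.28 on the CCK-EGFP arrays, against 4.48, 5.52 and 5.45 on the non-EGFP arrays. The groups did not overlap, and the difference was 2.86 ± 0.42, or 7.26-fold (adjusted p = 0.00608). With the mean of its 2 probe sets the adjusted p was 0.0704 (difference 1.76), and its second probe set did not pass. Sema3b had levels of 8.09, 8.31 and 8.08 on the CCK-EGFP arrays, against 9.80, 10.61 and 10.21 on the non-EGFP arrays. It was lower on every CCK-EGFP array, by 2.05 ± 0.25 on the log2 scale (adjusted p = 0.0031), and all 3 of its probe sets passed in this direction.

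The other semaphorins that passed are bound to the membrane. Sema4c had levels of 5.69, 5.67 and 5.44 on the CCK-EGFP arrays, against 4.48, 3.31 and 3.74 on the non-EGFP arrays. With the non-EGFP mean below background, it was at least 1.999-fold higher (fitted difference 1.75 ± 0.32, adjusted p = 0.0119), a call lost without CCK-EGFP replicate 2 (adjusted p = 0.0525). Sema7a, anchored by a lipid, had levels of 9.57, 8.996 and 8.74 on the CCK-EGFP arrays, against 11.04, 11.19 and 9.94 on the non-EGFP arrays. The groups did not overlap, and the difference was -1.62 ± 0.40 (adjusted p = 0.0310). Its call was lost without any single array other than non-EGFP replicate 3 (adjusted p as high as 0.104).

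Sema6a, Sema6b and Sema4b, which span the membrane, were also lower in CCK-EGFP cells. Their differences were -1.46 ± 0.37 for Sema6a (adjusted p = 0.0339), -1.11 ± 0.18 for Sema6b (adjusted p = 0.00811) and -0.73 ± 0.21 for Sema4b (adjusted p = 0.0455). The Sema6a call was lost with the replicate number as a block (adjusted p = 0.0735) and when CCK-EGFP 1 or 2, or else non-EGFP 1 or 2, was left out (adjusted p as high as 0.116). Its other 2 probe sets, above background in both groups, passed as lower when tested alone. Their differences were -2.17 and -2.14 (adjusted p = 0.00445 and 0.00169). The Sema4b call was lost with the block (adjusted p = 0.0648), after a second quantile normalization (adjusted p = 0.0621) and without any 1 array (adjusted p of 0.0572 to 0.153). Sema6b stayed past the threshold without any 1 array. Several semaphorins were bright in both groups. Sema4g averaged 12.73 in CCK-EGFP cells, against 12.54 in non-EGFP cells, Sema4a averaged 11.73 in CCK-EGFP cells, against 12.14 in non-EGFP cells, and neither passed. Sema6d averaged 8.69 in CCK-EGFP cells, against 9.38 in non-EGFP cells (difference -0.69, adjusted p = 0.0622), and centring made Sema6d and Sema4a lower calls (adjusted p = 0.0249 and 0.0426), as trend and robust settings did Sema4a (adjusted p = 0.0317). The remaining semaphorins that did not pass include Sema4d, the Plxnb1 ligand, with Sema3f, Sema4f, Sema5a and Sema6c. Sema3a, Sema3d, Sema3e, Sema3g and Sema5b were below background in both groups.

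Eph receptors are tyrosine kinases activated by ephrins on neighbouring cells. In CCK-EGFP cells 1 of the 13 measured was higher and 3 were lower. Ephb3, a receptor for ephrin-B proteins that keeps Paneth cells at the crypt base, had levels of 6.36, 5.89 and 5.45 on the CCK-EGFP arrays, against 4.60, 3.78 and 4.33 on the non-EGFP arrays. The groups did not overlap and the gene was at least 2.46-fold higher (fitted difference 1.66 ± 0.32, adjusted p = 0.0149), a call lost when CCK-EGFP replicate 1 or 2 was left out (adjusted p as high as 0.0582).

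Epha1 and Epha2, receptors for ephrin-A proteins that are known in epithelia, were lower. Epha1 had levels of 6.14, 7.13 and 8.004 on the CCK-EGFP arrays, against 9.63, 9.89 and 9.20 on the non-EGFP arrays. Epha2 had levels of 7.06, 7.25 and 7.11 on the CCK-EGFP arrays, against 9.93, 9.33 and 9.07 on the non-EGFP arrays. CCK-EGFP values lay below non-EGFP values for both, by 2.48 ± 0.48 on the log2 scale for Epha1 (adjusted p = 0.0146) and 2.30 ± 0.26 for Epha2 (adjusted p = 0.00228). Without CCK-EGFP replicate 2 the adjusted p of Epha1 was 0.0558, while Epha2 stayed past the threshold without any 1 array. Epha8 lay at the threshold (difference -0.67 ± 0.20, adjusted p = 0.04996), but both its means, 3.55 in CCK-EGFP cells against 4.22 in non-EGFP cells, were below background, so no fold is given. Its call was lost with the block (adjusted p = 0.0678), with trend and robust settings (adjusted p = 0.0535), after a second quantile normalization (adjusted p = 0.0856) and without any single array other than non-EGFP replicate 3 (adjusted p as high as 0.132).

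Epha4 averaged 7.07 in CCK-EGFP cells, against 6.88 in non-EGFP cells, and Ephb4, the receptor of ephrin-B2, averaged 5.81 in CCK-EGFP cells, against 5.74 in non-EGFP cells. Neither passed. Epha7 averaged 6.10 in CCK-EGFP cells, against 4.60 in non-EGFP cells (fitted difference 1.501, adjusted p = 0.0701). Epha5, Epha6, Epha10, Ephb1 and Ephb6 were below background in both groups.

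Ephrins are the membrane-bound ligands of Eph receptors, and in CCK-EGFP cells 1 of 8 was higher and 2 were lower. Efna2, held in the membrane by a lipid anchor like all ephrin-A proteins, had levels of 7.19, 7.79 and 8.79 on the CCK-EGFP arrays, against 5.998, 5.71 and 6.28 on the non-EGFP arrays. Its groups did not overlap, and the difference was 1.93 ± 0.42, or 3.802-fold (adjusted p = 0.0213). The call was lost when CCK-EGFP 2, or else non-EGFP 1 or 2, was left out (adjusted p as high as 0.0689). A second Efna2 probe set, above background in both groups, overlapped between them and did not pass when tested alone (difference 0.83, adjusted p = 0.248). Efna1 had levels of 10.24, 10.10 and 10.22 on the CCK-EGFP arrays, against 11.77, 11.31 and 11.35 on the non-EGFP arrays. Efnb2, which spans the membrane, had levels of 9.27, 9.63 and 9.94 on the CCK-EGFP arrays, against 10.95, 10.71 and 10.92 on the non-EGFP arrays. Both were lower on every CCK-EGFP array, by 1.29 ± 0.20 on the log2 scale for Efna1 (adjusted p = 0.00712) and 1.24 ± 0.23 for Efnb2 (adjusted p = 0.0126). Without CCK-EGFP replicate 2 the adjusted p of Efnb2 was 0.0536. Efna1 lies next to Efna3, which is followed by Efna4, on chromosome 3 (GRCm38.p6), and neither of these passed. Efna3 averaged 5.64 in CCK-EGFP cells, against 6.19 in non-EGFP cells, and Efnb1 averaged 9.37 in CCK-EGFP cells, against 9.83 in non-EGFP cells without passing. Efna4, Efna5 and Efnb3 were below background in both groups.

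Probe sets of 1 gene read different parts of its transcripts, and in most members past the threshold they gave the same direction. When each named probe set was tested alone, 30 of the 235 member probe sets were higher in CCK-EGFP cells and 25 were lower, beside 10.4% higher and 8.52% lower among all 34945 named probe sets (18.9% in both directions). Of the 32 members past the threshold, 22 had several probe sets. In 20 of these all probe sets had 1 sign, in 12 a further probe set passed in the same direction, and in 0 did one pass in the opposite direction. No such count over all genes is given here. Among the 46 members with several probe sets that did not pass, some had probe sets of opposite sign, such as Dcc, Ntn4 and Nrp2. In 5 members that did not pass, a probe set other than the one used did. One of them was Epha3, an ephrin-A receptor, whose brightest probe set averaged 4.65 in CCK-EGFP cells, against 4.72 in non-EGFP cells. A second Epha3 probe set had levels of 6.80, 6.39 and 4.24 on the CCK-EGFP arrays, against 2.25, 1.96 and 2.03 on the non-EGFP arrays, and another had 6.72, 7.36 and 5.11 on the CCK-EGFP arrays, against 2.44, 3.03 and 2.52 on the non-EGFP arrays. All non-EGFP values of both probe sets were below background, so they were higher in CCK-EGFP cells by at least 1.21 and 1.80 on the log2 scale (fitted difference 3.73 for each, adjusted p = 0.0114 and 0.00756). With the mean of its 4 probe sets Epha3 passed as higher (fitted difference 1.73, adjusted p = 0.0270). For Plxnc1, 3 further probe sets were higher, by at least 0.12, 1.89 and 3.53 on the log2 scale, as their non-EGFP means were below background. Epha4 and Epha7 each had a further probe set that passed as higher, but with both means below background. Sema6d had a further probe set that passed as lower (difference -1.04, adjusted p = 0.0494).

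**Figure D4:**
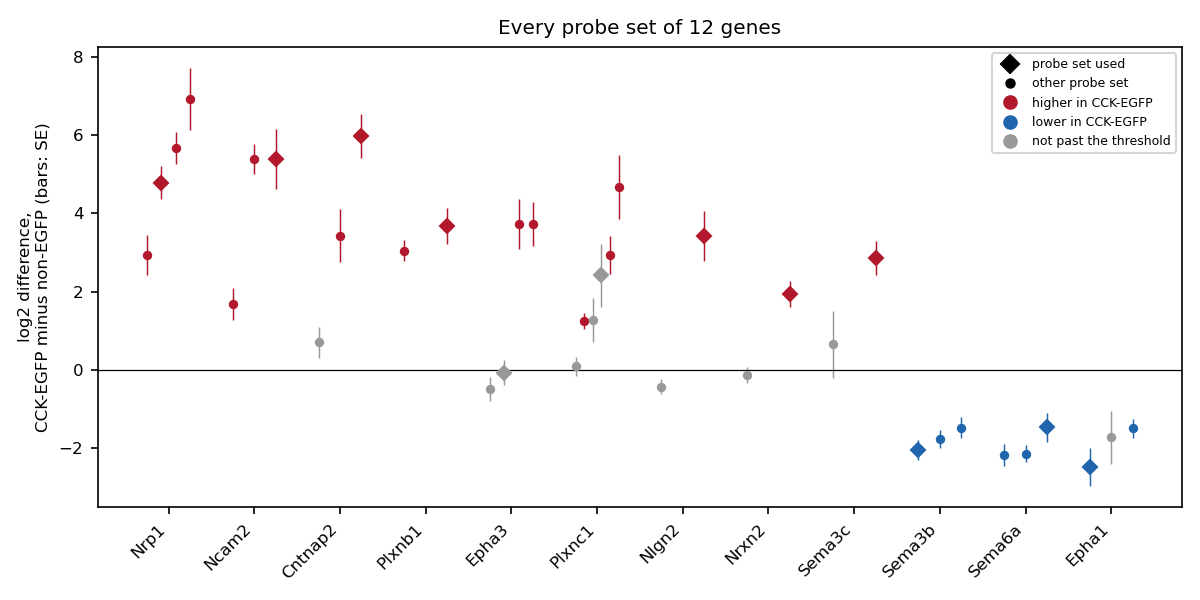
Difference of every probe set of 12 members. The y axis is the log2 difference, CCK-EGFP minus non-EGFP, with standard errors (n = 3 arrays per group), diamonds are the probe sets used and circles the others, and colour gives the call over all named probe sets. All 4 Nrp1 probe sets are red, and for Epha3 the diamond lies near 0 while circles reach 3.73. Differences are drawn as fitted, also where a group mean was below background.

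Other genes of the same pathways, taken from lists made with earlier results of these data known, also changed in both directions. Of 39 guidance effectors and co-receptors 10 (25.6%) were higher in CCK-EGFP cells and 5 (12.8%) were lower, beside 14.0% and 10.2% of all genes. Their median difference was 0.20, and 0 with group means below background raised to it. Crmp1, a cytosolic mediator of semaphorin signalling, differed by 3.94, Rgmb, a ligand of the netrin receptor neogenin, by 2.12, and Dpysl3, a relative of Crmp1, by 1.80. Flrt1, a membrane protein that binds Unc5 receptors, was higher by at least 2.99 on the log2 scale. The Dpysl3 call was lost when CCK-EGFP 1 or 2, or else non-EGFP 2 or 3, was left out (adjusted p as high as 0.0829). Ablim1 and Nck2, actin-linked adaptors, did not pass, with differences of 0.29 and -0.01.

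Of 49 genes of the L1 family and other synaptic adhesion genes, 11 (22.4%) were higher and 5 (10.2%) lower, beside 14.0% and 10.2% of all genes. Their median difference was -0.06, and 0 with group means below background raised to it. Lrrn1, a leucine-rich repeat membrane protein, differed by 5.46, and Adgrl1, the latrophilin that binds teneurins, by 4.05. Clstn2, a calsyntenin, was higher by at least 2.54 and Lrfn4, a postsynaptic adhesion protein, by at least 2.24. Ptprf, a receptor phosphatase, and Clstn1 did not pass, with differences of -0.09 and 0.42, and Clstn1 passed with trend and robust settings (adjusted p = 0.0397).

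Of 33 scaffolds that bind adhesion molecules, 7 (21.2%) were higher and 7 (21.2%) lower, beside 14.0% and 10.2% of all genes. Their median difference was 0.33, and 0.20 with group means below background raised to it. Lin7a, which links neurexin complexes through Cask, was higher by at least 3.96, and Mpp2, a membrane-associated guanylate kinase, by at least 2.27. Dlg4, the scaffold PSD-95 that binds neuroligins, differed by 3.65, and Dlgap1, its binding partner, by -2.61. Sdcbp and Dlgap4 did not pass, with differences of 0.20 and 0.15, and Dlgap4 passed with the mean of its probe sets (1.10, adjusted p = 0.00722).

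Markers of other cell types that carry guidance and adhesion genes moved with the groups to unequal degrees. Of 13 enteric neuron markers 5 were higher in CCK-EGFP cells, and the log2 of their summed level was 12.59 to 13.51 on CCK-EGFP arrays and 8.16 to 9.28 on non-EGFP arrays. Those 5, Uchl1, Ret, Nefl, Nefm and Snap25, are also found in endocrine cells, while the CCK-EGFP means of Elavl4, Chat, Nos1, Vip and Hand2 were below background. Tuft cell markers had 3 of 6 higher, with 11.77 to 13.06 on CCK-EGFP arrays and 9.95 to 10.49 on non-EGFP arrays. Stem and crypt base markers had 2 of 10 higher and 1 lower, with 12.27 to 12.69 on CCK-EGFP arrays and 11.06 to 12.21 on non-EGFP arrays. Endothelial markers, of cells that also express Nrp1 and Plxnd1, had 1 of 10 higher. The log2 of their summed level was 8.20 to 9.17 on CCK-EGFP arrays and 7.77 to 8.47 on non-EGFP arrays. Of the 10, Cdh5, Kdr, Tek, Emcn and Flt1 were below background in both groups. The other 5 exceeded it, 2 in both groups, 2 in CCK-EGFP cells alone and 1 in non-EGFP cells alone. Glial markers stood at 12.60 to 12.73 on CCK-EGFP arrays and 12.86 to 13.10 on non-EGFP arrays, with 1 of 7 higher. Goblet cell markers stood at 15.96 to 16.22 on CCK-EGFP arrays and 16.32 to 16.46 on non-EGFP arrays, with 1 of 8 higher and 2 lower. Myeloid markers stood at 10.59 to 12.35 on CCK-EGFP arrays and 12.25 to 12.52 on non-EGFP arrays, with 2 of 10 lower. Stromal markers stood at 10.26 to 11.79 on CCK-EGFP arrays and 10.25 to 10.45 on non-EGFP arrays, with 1 of 12 lower. No marker of T and NK lymphocytes (12.99 to 14.91 on CCK-EGFP arrays, 13.46 to 14.799 on non-EGFP arrays), B and plasma cells (9.06 to 12.23 on CCK-EGFP arrays, 10.48 to 11.48 on non-EGFP arrays) or Paneth cells (11.91 to 13.70 on CCK-EGFP arrays, 13.10 to 14.25 on non-EGFP arrays) passed. Their part in the differences of the guidance and adhesion genes was not tested.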

How the data were processed

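Total RNA of 6 samples of sorted mouse intestinal cells was hybridised to 6 arrays, 3 per group, whose number limits the precision. The log2 values deposited by the authors were made with RMA, per the submitters' processing notes. That they are log2 rests on RMA's usual scale and on their range of 1.47 to 14.8. The quantile normalization in RMA can reduce a broad shift between groups, and there is no detection call. For RMA, version and settings were not given in the sources used here.

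Of 45101 probe sets, 34945 had 1 symbol in the platform annotation, which can be old, 932 had several, 9160 were unnamed and 64 were controls. Gene identifiers of 34741 were found in RefSeq (GRCm38.p6), and 0 symbols changed. One probe set stood for each of 18193 genes, the brightest by mean over 6 arrays. Background was set at 4.60, the 95th percentile among the means of 71 olfactory and vomeronasal receptor genes. If 1 group mean was below background, the fold was taken against 4.60 and is a lower bound. Single arrays may lie below background where the mean does not. Summed marker levels are log2 of the summed linear values.

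The groups were fitted with limma (version 3.58.1, R 4.3.3, lmFit with eBayes, two-sided tests, Benjamini-Hochberg over all genes, threshold 0.05), tested on simulated data. Python 3.11.15, pandas 2.3.3 and matplotlib 3.10.9 were used. Members and lists were chosen with earlier results of these data known. The text gives array values for up to 4 higher and 2 lower members per family, group means for up to 2 that did not pass by mean level, and differences for other members that passed. From each list of other pathway genes it names up to 4 that passed by size and 2 that did not by mean level. Plxnd1, Dcc and members with a further probe set past the threshold were named after their values were seen. Of 40, 50 and 35 listed pathway genes, 1, 1 and 2 are not analysed here.

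Both groups number their samples 1 to 3. Across genes, deviations from group means correlated at 0.270, 0.159 and 0.219 between arrays of 1 number. Between other arrays the values were -0.245 to -0.0109. Deviations within a group sum to 0, so positive values for 1 number push the others down. Arrays of 1 number may be pairs, but the labels do not tell what the number marks. The main test had no block and ignored this possible pairing. With the block, 2340 of all genes were higher and 1534 lower, beside 2540 and 1851 without it. Calls of named genes that a replicate block changes are given beside the results. Alternatives were this block, filters on dim genes, trend and robust settings, array weights, centring, quantile normalization once more, averaging a gene's probe sets, each probe set alone, a test against a difference of 0.5 (treat) and leaving out each array.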

Additional observations from a re-analysis of the deposited data

How the results depend on the processing

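The counts of 16 members higher and 16 lower in CCK-EGFP cells stayed within 1.5 times of these values under each alternative that kept all arrays, with 1 exception: the test against a difference of 0.5 (treat) left 12 higher and 5 lower. With the replicate number as a block, 17 were higher and 13 lower, 15 and 13 of them the same genes, and the block changed no call of a named gene other than those given above. Leaving out 1 array gave 9 to 17 higher and 5 to 18 lower, beside 1365 to 2486 and 505 to 1962 of all genes. Tested as single probe sets, 29 of the 32 members kept their call. Those that lost it were Cadm1, Epha8 and Sema4b (adjusted p = 0.0516, 0.0649 and 0.0586). The number of members above background was 61, and 88 or 52 with the 75th or 99th percentile in place of the 95th, and 63 after centring.

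Among the guidance effectors, higher genes numbered 6 after centring, 5 with treat and 5 to 9 without 1 array. Lower ones numbered 8 with trend and robust settings, array weights or the mean of probe sets, 9 after centring, 3 with treat and 3 to 7 without 1 array. Lower L1 and synaptic adhesion genes numbered 2 with the block, either filter or a second quantile normalization, 10 after centring, 1 with treat and 0 to 7 without 1 array. Scaffolds gave 3 lower with treat, and 3 to 6 higher and 2 to 7 lower without 1 array.

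Among the named genes, signs turned only for some that did not pass in the main test. Array weights gave 0.0935 for Epha3 and 0.0465 for Nck2. Centring gave -0.18 for Ephb4, -0.0550 for Epha4, -0.0618 for Sema4g, -0.0504 for Sdcbp and -0.10 for Dlgap4. A second quantile normalization gave -0.17 for Ephb4, -0.0364 for Epha4, 0.0291 for Nlgn3 and 0.0485 for Nck2. The mean of probe sets gave 1.73 for Epha3, now past the threshold (adjusted p = 0.0270), 0.0731 for Slit1, -0.10 for Ablim1 and -0.20 for Clstn1. Without 1 array the range was -0.10 to 0.0718 for Nck2, -0.18 to 0.48 for Ephb4, -0.25 to 0.25 for Epha3, -0.18 to 0.0442 for Unc50, -0.22 to 0.0327 for Nlgn3 and -0.0393 to 0.36 for Dlgap4. The cause of these changes was not tested. The 3 arrays per group limit precision, and levels below background have no measured fold.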
